A study of Arabidopsis thaliana with 4 samples.

Results

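The nuclear genes for the photosystems and their light-harvesting antennae were examined for binding by LEAFY COTYLEDON1 (LEC1) in bent cotyledon-stage Arabidopsis seeds. The 42 genes were chosen by function from locus identifiers, with earlier results of these data known. They comprised 13 antenna genes of photosystem II, 6 antenna genes of photosystem I, 12 subunit genes of photosystem I and 11 subunit genes of photosystem II, out of 27444 protein-coding genes on chromosomes 1 to 5. All 42 were found in the gene table by their locus identifiers.

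Chromatin came from whole seeds of plants homozygous for the lec1-1 mutation and for a transgene, LEC1:LEC1-GFP:LEC1, that encodes LEC1 fused to green fluorescent protein between LEC1 sequences. Fragments precipitated with an anti-GFP antibody (LEC1-GFP ChIP, 2 biological replicates) were set against input, unprecipitated chromatin of the same material (2 biological replicates), and both groups carried the mutation and the transgene. The deposited result is 1 list of 6356 peaks for the whole series. It holds no values per sample, so nothing below has a replicate error or a test, and the read depth is unknown. Embryo, endosperm and seed coat were precipitated together, so a peak does not tell in which cells, or in how many of them, LEC1-GFP was bound.

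Photosystem II splits water and photosystem I reduces ferredoxin. Their chloroplast-encoded cores are completed by subunits encoded in the nucleus, and nuclear antenna proteins carry the chlorophyll that gathers light for them. Arabidopsis embryos are green and photosynthesise during maturation, a phase in which LEC1 is active. LEC1 is itself a component of NF-Y, a trimeric DNA-binding factor, and belongs to its B subunits.

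In the full list, LEC1-GFP peaks were found at most of these genes in each of the 4 groups. A gene counted when at least 1 bp of a peak lay in the gene or within 1000 bp of either end, which was the case for 36 of 42 (85.7%), against 24.6% of all protein-coding genes. By group, this was 12 of 13 photosystem II antenna genes (92.3%), 5 of 6 photosystem I antenna genes (83.3%), 10 of 12 photosystem I subunit genes (83.3%) and 9 of 11 photosystem II subunit genes (81.8%). Each group had 1 or 2 genes without a peak. With only the 3178 highest-scoring peaks, 24 of 42 members had one, and the photosystem I subunits had 4 of 12, against 13.5% of all protein-coding genes. With the full list, the genes without a peak were CAB3, Lhca5, PSAD-1, PSAO, NPQ4 and PSBY. The members were short genes, with a median length of 1355 bp (720 to 3207 bp) against 2078 bp for all protein-coding genes. Of all genes within that length range 24.5% had a peak, which is close to the share for genes of any length. The range holds 19074 of the 27444 genes, so its share could hardly differ. It is not matched to the members' median length.

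**Figure D1:**
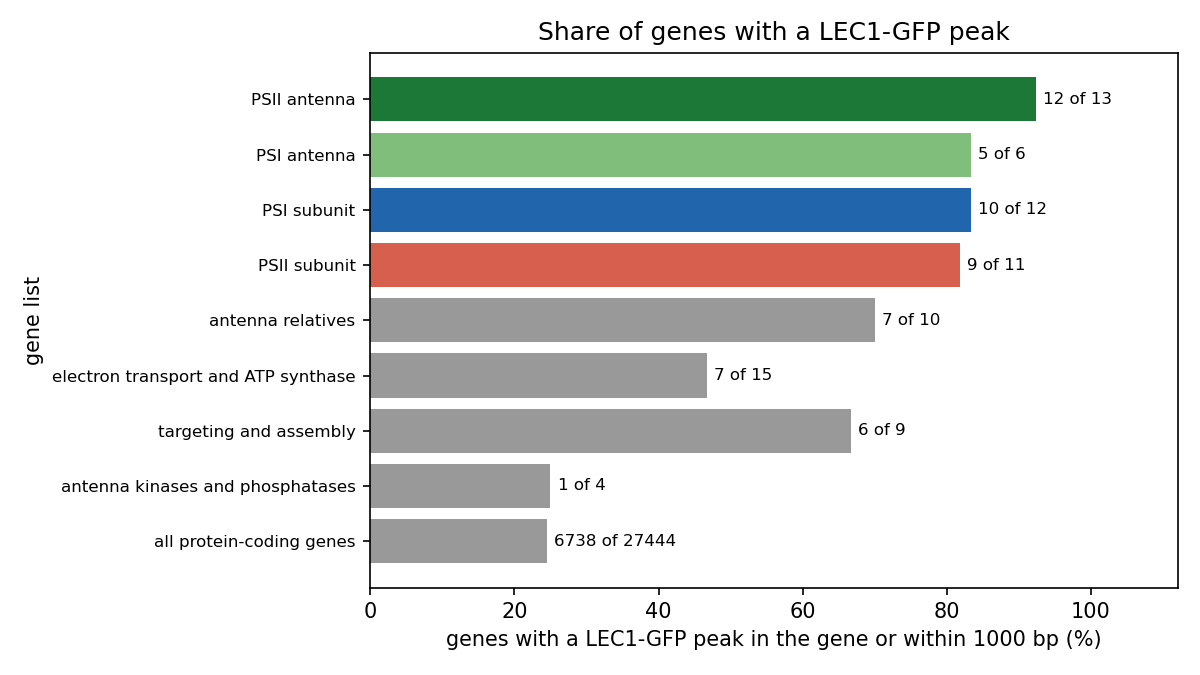
Percentage of genes (x axis) with a LEC1-GFP peak in the gene or within 1000 bp, for the 4 groups of members (coloured bars), 4 lists of other photosynthesis genes and all protein-coding genes (grey bars), with the counts printed beside each bar. The 4 member groups lie between 81.8% and 92.3%, above the grey bars.

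Scores are the authors' own values per peak. No source used here states their scale. They therefore serve only to rank peaks within the list, where they ran from 1.92 to 4.51 with a median of 2.45. The 36 genes with a peak had a median highest score of 2.70, against 2.51 over all 6738 protein-coding genes with a peak. The members' highest scores ran from 1.99, at rank 6088 of the 6356 peaks, to 3.28, at rank 502. Counted once each, the members' peaks numbered 38, and 14 of them (36.8%) belonged to the highest-scoring 25% of the list, against 24.9% of the 5414 peaks at protein-coding genes. Median highest scores were 2.67 for photosystem II antenna genes, 2.88 for photosystem I antenna genes, 2.40 for photosystem I subunit genes and 2.76 for photosystem II subunit genes. The ranges of the 4 groups overlapped throughout.

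**Figure D2:**
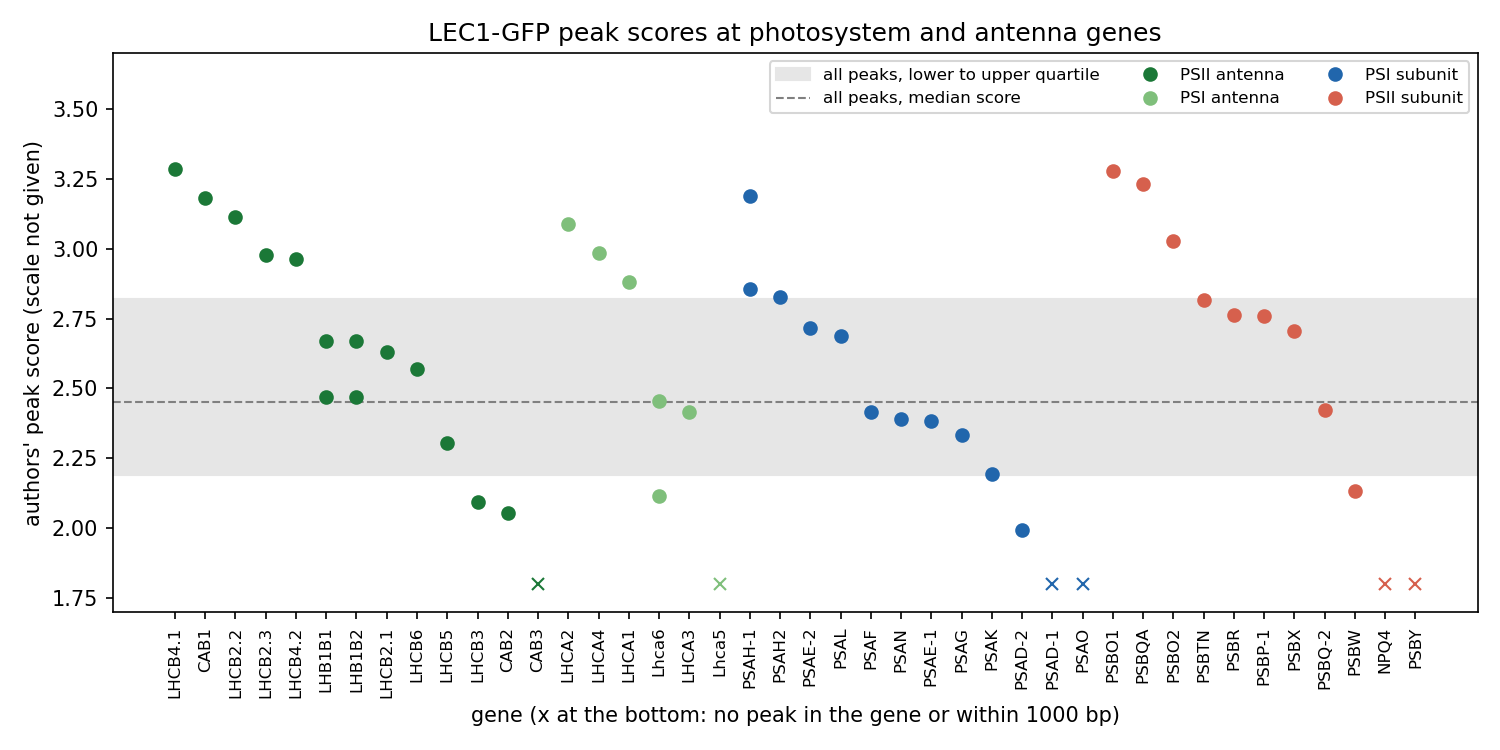
Authors' score (y axis, scale not given) of each LEC1-GFP peak in or within 1000 bp of each of the 42 genes (x axis), coloured by group and ordered by highest score within each group. Crosses mark the 6 genes without a peak, the grey band runs from the lower to the upper quartile of all 6356 scores (2.19 to 2.82), and the dashed line is their median of 2.45. Each group reaches from above the band to the median or lower.

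The major light-harvesting complex of photosystem II is built from the LHCB1 proteins, encoded by CAB1, CAB2, CAB3, LHB1B1 and LHB1B2, with LHCB2 and LHCB3 proteins. Among the neighbouring LHCB1 genes CAB1 to CAB3, CAB1 (AT1G29930) had a peak with a score of 3.18 (TAIR10 chromosome 1, 10477651 to 10477999). CAB2 (AT1G29920) had a narrow peak of 99 bp with a score of 2.05 (chromosome 1, 10476101 to 10476199). CAB3 (AT1G29910) had no peak, the nearest lying 2599 bp from the gene, which was that of CAB2. The scores therefore ranged from rank 660 to rank 5703 among 6356 within a cluster of like genes. These copies are near-identical, and no source used here states how reads matching several copies were handled, so the assignment of peaks among them is uncertain.

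LHB1B1 (AT2G34430) and LHB1B2 (AT2G34420), another neighbouring LHCB1 pair, had a pair of peaks in the sequence between them. The peak at the LHB1B2 end scored 2.67 (chromosome 2, 14523501 to 14523849), whereas the one at the LHB1B1 end scored 2.47 (chromosome 2, 14524401 to 14524649). Each lay within 1000 bp of both genes and crossed the end of 1 of them. All 3 LHCB2 genes had a peak that crossed a gene end. LHCB2.2 (AT2G05070) scored 3.11 (chromosome 2, 1800301 to 1800699), LHCB2.3 (AT3G27690) had 2.98 and LHCB2.1 (AT2G05100) had 2.63. The uncertainty over reads that match several copies may extend to these LHCB1 and LHCB2 genes, whose identity was not analysed. LHCB3 (AT5G54270) had a peak of 99 bp with a score of 2.09 (chromosome 5, 22038201 to 22038299), which lay wholly inside the gene and ended 36 bp from its nearer end.

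The minor antenna proteins LHCB4, LHCB5 and LHCB6 connect the major complex to the photosystem II core. LHCB4.1 (AT5G01530) had the highest score of all members, 3.28 (chromosome 5, 208651 to 209099), at rank 502 of the list. LHCB4.2 (AT3G08940) followed with 2.96 (chromosome 3, 2717301 to 2717649), LHCB6 (AT1G15820) with 2.57 and LHCB5 (AT4G10340) with 2.303. The LHCB6 peak had another protein-coding gene nearer to its midpoint than LHCB6.

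The photosystem I antenna is a belt of LHCA1 to LHCA4, each encoded by a single gene in this list, and all 4 had a peak. LHCA2 (AT3G61470) scored 3.09 (chromosome 3, 22745351 to 22745699), LHCA4 (AT3G47470) scored 2.98 (chromosome 3, 17494901 to 17495299) and LHCA1 (AT3G54890) scored 2.88 (chromosome 3, 20340901 to 20341299). LHCA3 (AT1G61520) scored 2.42, from a peak wholly inside the gene with its midpoint 210 bp from the nearer end. Lhca5 and Lhca6 are minor relatives that link photosystem I to the NADH dehydrogenase-like complex. Lhca6 (AT1G19150) had 2 peaks, at opposite ends of the gene, with scores of 2.46 and 2.12. Lhca5 (AT1G45474) had none, and the nearest peak lay 9801 bp away.

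Of the photosystem I subunits, PSAD and PSAE form the docking site for ferredoxin on the stromal side. PSAE-2 (AT2G20260) scored 2.72 (chromosome 2, 8736601 to 8736849) and PSAE-1 (AT4G28750) scored 2.39. PSAD-2 (AT1G03130) had the lowest score of any member, 1.99 (chromosome 1, 754151 to 754349), at rank 6088 of 6356. PSAD-1 (AT4G02770) had no peak, and the nearest lay 10987 bp away. PSAF and PSAN, which act at the plastocyanin side of the complex, scored 2.41 (AT1G31330) and 2.39 (AT5G64040).

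PSAH, PSAL and PSAO lie where light-harvesting complexes dock to photosystem I during state transitions. PSAH-1 (AT3G16140) had 2 peaks, with scores of 3.19 (chromosome 3, 5469351 to 5469749) and 2.85 (chromosome 3, 5470301 to 5470649). The first crossed the end of the gene, and the second had its midpoint 881 bp outside it. PSAH2 (AT1G52230) scored 2.83 (chromosome 1, 19454651 to 19454949) and PSAL (AT4G12800) scored 2.69. PSAO (AT1G08380) had no peak, and the nearest lay 12004 bp away. PSAG and PSAK, membrane subunits at the edge of the complex, scored 2.33 (AT1G55670) and 2.19 (AT1G30380). The PSAG peak is the least certain assignment of the group. It lay 302 bp outside PSAG, its midpoint was inside the neighbouring gene AT1G55675, and 4 protein-coding genes lay within 1000 bp of it.

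The photosystem II proteins PSBO, PSBP and PSBQ stabilise the manganese cluster at which water is oxidised, and all 5 of their genes here had a peak. PSBO1 (AT5G66570) scored 3.28 (chromosome 5, 26568451 to 26568849), PSBQA (AT4G21280) scored 3.23 (chromosome 4, 11334151 to 11334549) and PSBO2 (AT3G50820) scored 3.03 (chromosome 3, 18892301 to 18892599). PSBP-1 (AT1G06680) scored 2.76 and PSBQ-2 (AT4G05180) scored 2.42. Of the smaller subunits, PSBTN (AT3G21055) scored 2.82, PSBR (AT1G79040) scored 2.76, PSBX (AT2G06520) scored 2.71 and PSBW (AT2G30570) scored 2.13. The PSBR peak was the widest of any member, at 549 bp. PSBY (AT1G67740) had no peak, the nearest lying 2832 bp away. NPQ4 (AT1G44575) encodes PSBS, which switches the antenna to heat dissipation in strong light. It had none either, and the nearest lay 18772 bp away, farther than for any other member.

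Where the members held a pair of genes for a protein, the copies often differed in score. LHCB4.3, a further LHCB4 gene with a highest score of 2.34, was listed with the antenna relatives and is not compared here. PSBQA exceeded PSBQ-2 by 0.81, PSAH-1 exceeded PSAH2 by 0.36, LHCB4.1 exceeded LHCB4.2 by 0.32 and PSBO1 exceeded PSBO2 by 0.25, all in units of the authors' score. PSAE-1 lay below PSAE-2, 2.39 against 2.72. In the PSAD pair the only peak was the low-scoring one at PSAD-2. With no replicates in the list, these differences cannot be set against any error. How reads matching both copies were handled is also unknown, and the identity of the copies was not analysed. The assignment of peaks between copies is therefore uncertain here too.

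The peaks sat on the ends of the genes. Of the 36 genes with a peak, 32 (88.9%) had one that crossed an end of the gene, against 34.4% of all protein-coding genes with a peak. Each of these 32 genes had 1 end crossed and none had both. Both ends were crossed at only 2.59% of all protein-coding genes with any end crossed, so this does not set the members apart. The exceptions were CAB2, LHCB3, LHCA3 and PSAG. Most members had 1 peak, and 4 of the 36 (11.1%) had 2, against 16.5% of all genes with a peak that had 2 or more. The 4 include LHB1B1 and LHB1B2, which were credited with the same 2 peaks. Counted by peak, 32 of 38 (84.2%) crossed the end of a protein-coding gene, against 38.6% of peaks at protein-coding genes. Neither comparison of crossing was matched for peak width or gene length. The members' peaks had a median width of 299 bp, against 249 bp for all peaks at protein-coding genes, and the members were shorter genes. The gene table used gives neither strand nor exons, so the start of a gene is not told from its end, nor an untranslated region from coding sequence.

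**Figure D3:**
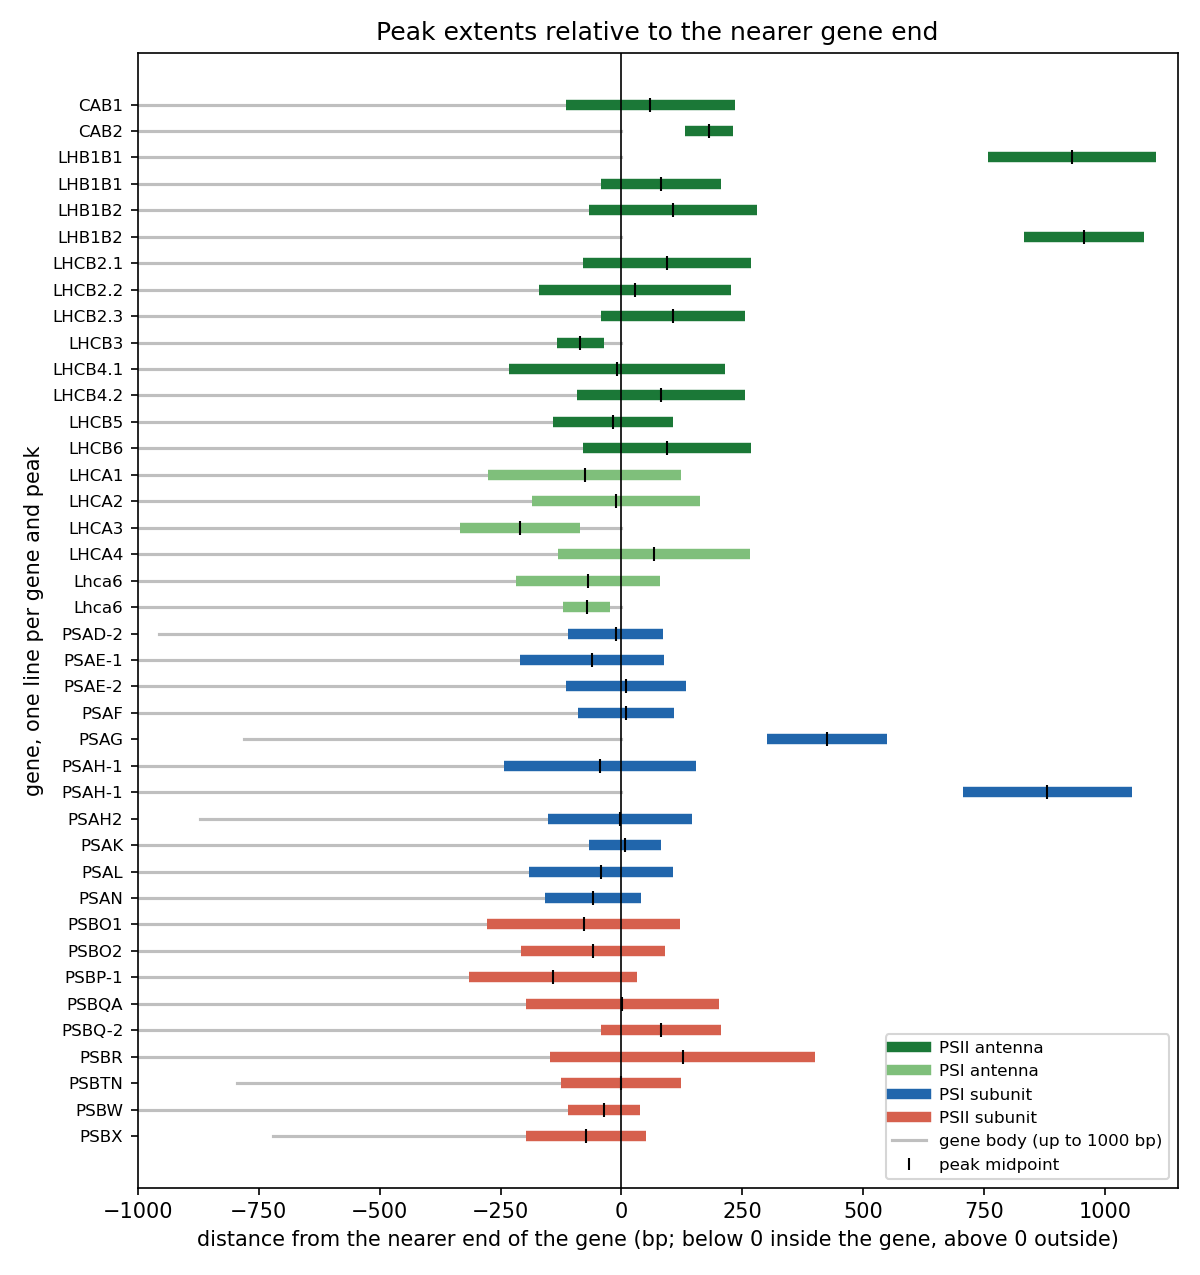
Extent of each peak (coloured bars) and its midpoint (black ticks) relative to the nearer end of the member gene, in bp, with the gene body to the left of 0 as a grey line drawn up to 1000 bp. There is 1 line for each gene and peak, so the 2 peaks between LHB1B1 and LHB1B2 are drawn for both genes. At 32 of the 36 genes a bar spans the line at 0.

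Midpoints lay a median of 68.5 bp from the nearest end of a protein-coding gene, against 172 bp for all peaks at protein-coding genes. They fell within 100 bp of an end for 30 of 38 peaks (78.9%), against 34.7% of all peaks at genes and 36.1% of peaks at genes in the members' length range. This measure does not depend on the width of a peak. By group it held for 9 of 12 peaks of the photosystem II antenna, 5 of 6 of the photosystem I antenna, 9 of 11 of the photosystem I subunits and 7 of 9 of the photosystem II subunits. All peak edges lie on a grid of 50 bp, so smaller differences are not resolved.

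Peaks with the midpoint inside a gene were compared with those outside genes. Of the 38 peaks 21 (55.3%) had the midpoint inside a protein-coding gene, against 39.9% of peaks at protein-coding genes, and 17 (44.7%) lay outside. The photosystem II antenna had 3 of 12 inside, at LHCB3, LHCB4.1 and LHCB5. The photosystem I antenna had 5 of 6 inside, the photosystem I subunits 7 of 11 and the photosystem II subunits 6 of 9. Inside peaks had a median score of 2.69 (1.99 to 3.28) and outside peaks 2.72 (2.05 to 3.23). The scores of the 2 kinds thus overlapped over nearly their whole range. Over all peaks at protein-coding genes the medians were 2.40 inside and 2.48 outside. Median widths were 299 bp inside and 349 bp outside, against 249 bp for either kind over all peaks at genes. Each of the 21 inside midpoints lay within 214 bp of a gene end, with a median of 58 bp, against a median of 137 bp over all inside peaks. Of the outside peaks, 15 of 17 crossed a gene end, against 36.2% of all outside peaks at protein-coding genes. The peak of CAB2 and the second peak of PSAH-1 did not. Of the inside peaks, 17 of 21 crossed a gene end, against 42.2% of all inside peaks.

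**Figure D4:**
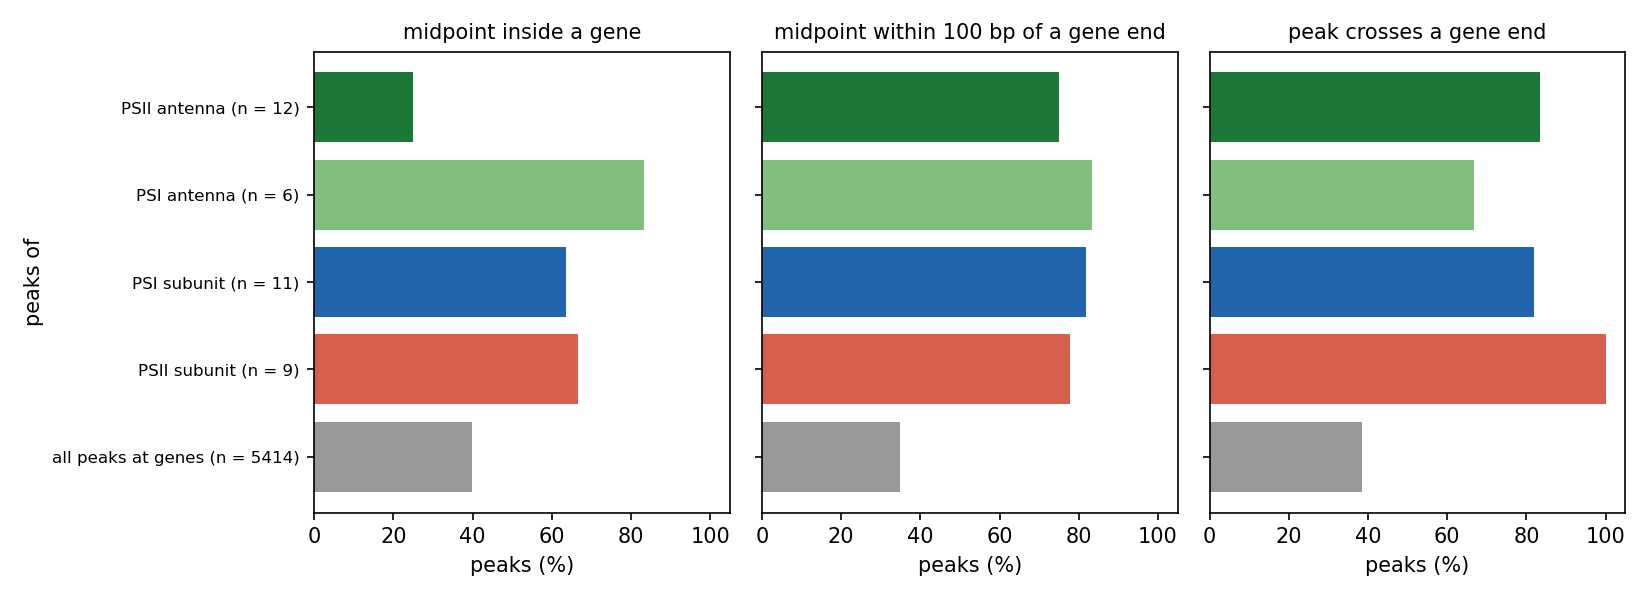
Percentage of peaks (x axes) with the midpoint inside a protein-coding gene, with the midpoint within 100 bp of a gene end, and crossing a gene end, for the peaks of the 4 groups and all 5414 peaks at protein-coding genes (grey). The groups lie above the grey bar in each panel, except for the photosystem II antenna in the first, where 3 of its 12 peaks were inside.

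Wider peaks scored higher among the members as in the whole list. Spearman's rho between width and score was 0.84 over the 38 peaks and 0.86 over all 6356, as a description of peaks that come from the same libraries. Members' peaks were 99 to 549 bp wide with a median of 299 bp, and the widest peak of the list was 1649 bp.

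**Figure D5:**
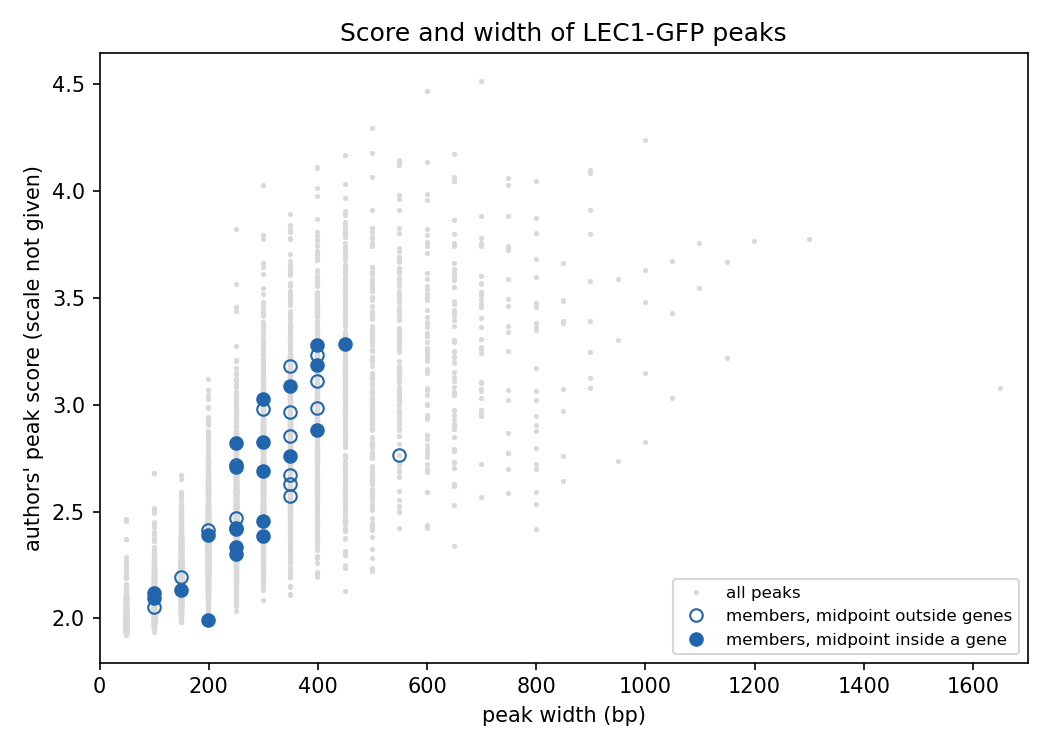
Authors' score (y axis, scale not given) against peak width in bp (x axis) for all 6356 peaks (grey) and the 38 peaks of the members, with the midpoint inside a gene (filled) or outside genes (open). Filled circles reach from 99 to 449 bp and open circles from 99 to 549 bp, and the 2 kinds are mixed over the widths they share.

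Neighbouring genes shared many of these peaks. Of the 38 peaks 26 (68.4%) lay within 1000 bp of at least 2 protein-coding genes, against 44.6% of all peaks at protein-coding genes, so a count by gene can credit a neighbour as well. For 36 of 38 the gene nearest to the midpoint was a member, the exceptions being the peaks of LHCB6 and PSAG. The 36 include the PSAE-1 peak, whose midpoint lay inside both PSAE-1 and the non-member AT4G28755. Named neighbours within 1000 bp included AIRP2 beside LHCB4.1, ATK1 beside PSBQA, MRE11 beside LHCB3, ROPGEF13 beside PSAH-1 and ROPGEF11 beside PSAH2. The 12 peaks with no other gene that close included those of CAB1, CAB2, LHCB2.1, LHCB2.2, LHCA2, LHCA3, PSBO1 and PSBO2.

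Other nuclear genes of the light reactions, listed by function, had a peak at 21 of 38 (55.3%), against 24.6% of all protein-coding genes. The 21 had a median highest score of 2.55. Antenna relatives had a peak at 7 of 10. ELIP1 (AT3G22840), an early light-induced protein that protects against excess light, scored 2.99 (chromosome 3, 8086101 to 8086499). LHCB4.3 had 3 peaks with a highest score of 2.34, and the early light-induced gene ELIP2 scored 2.24. LIL3:2 scored 2.37, OHP scored 2.31, SEP2 scored 2.12 and AT1G76570, which the table also lists as LHCB7, scored 2.00. OHP2, SEP1 and LIL3:1 had no peak.

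Genes of electron transport and the ATP synthase had a peak at 7 of 15 (46.7%), against 24.6% of all protein-coding genes. The ferredoxin genes FD1 and FED A, whose products accept electrons from photosystem I, scored 3.26 (chromosome 1, 3663851 to 3664549) and 3.17 (chromosome 1, 22444151 to 22444699). Both of these peaks also lay within 1000 bp of genes outside the lists, as did those of PGR5-LIKE A, OHP and PSB29, among others. ATPC1 and ATPD, for ATP synthase subunits, scored 2.84 and 2.75, and PETC, the Rieske protein of the cytochrome complex, scored 2.55. FNR2, for a reductase that passes electrons from ferredoxin to NADP, scored 2.06, and PGR5-LIKE A, for a protein of cyclic electron flow, scored 1.96 from a peak of 49 bp. The genes of plastocyanin, which donates electrons to photosystem I, had no peak, either at PETE1 or at DRT112. FNR1, PGR5, PGRL1B, ATPC2, PDE334 and AT2G26500 had none either.

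Genes for targeting and assembly had a peak at 6 of 9 (66.7%), against 24.6% of all protein-coding genes. CPSRP54, of the particle that delivers antenna proteins to the thylakoid, scored 3.13 (chromosome 5, 1063251 to 1063599), and the membrane insertase gene ALB3 scored 3.00 (chromosome 2, 12359201 to 12359499). PSB27, PSB28 and HCF136, which act in the assembly of photosystem II, scored 2.94, 2.93 and 2.89, and PSB29 scored 2.50. The targeting gene that the table lists as CAO (AT2G47450), CPFTSY and LPA1 had no peak. Of the 4 kinase and phosphatase genes that act on photosystem and antenna proteins, 1 (25%) had a peak, near the share of all protein-coding genes. This was STN8, which scored 2.50, and STN7, TAP38 and PBCP had no peak.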

How the data were processed

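Bowtie 0.12.7, SAMtools 0.1.19 and the TAIR10 build are named in the submitters' processing notes. No source used here names the peak caller or its threshold, or says whether replicates were pooled. The deposited list gives each peak a position and a score made by the authors. Starts were raised by 1 to count from 1.

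Genes came from a RefSeq table of assembly TAIR10.1, whose positions are not printed. With the peaks unmoved, 29.6% of midpoints lay within 100 bp of a gene end, against 7.43% and 7.47% after moving them by 1000 bp to either side. Peaks were assigned with Python 3.11.15, pandas 2.3.3 and NumPy 2.4.6, and the assignment was tested on simulated data. Counts and medians stand beside those of all genes or peaks, with no test. Promoter sequences, motifs, strand and protein identity, although planned, were not analysed here.

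The members and lists were chosen with earlier results of these data known. All members are accounted for. Other genes are named where they share a peak with a member or stand in the lists of other pathway genes, which were set out by function.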

Additional observations from a re-analysis of the deposited data

How the results depend on the processing

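The count of members with a peak was 24 to 36 over 10 alternative settings. The share of all protein-coding genes with a peak was 20.4% with 500 bp outside the gene, 31.5% with 2000 bp, 21.4% with the flanks alone, 12.5% with the gene body alone, 23.6% with the midpoint, or at least 0.5 of the peak's length, in the window, 23.8% with only the 6125 narrowest peaks and 17.4% with the nearest gene only. In these settings 34 to 36 members had a peak. With only the 3178 highest-scoring peaks, 24 members and 13.5% of all genes had one, and the photosystem I subunits fell to 4 of 12. With members in overlapping windows counted once, 34 of 39 had a peak. The share of the members' peaks inside genes was 48.0% to 57.1%. Neither this range nor the count of 34 of 39 has a matching share over all peaks or genes. Restricting all genes to the members' length range was chosen after seeing the data.

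No paired analysis was possible because the list holds no values per sample, and no replicate was left out because none is named in it. Depth is unknown, and a gene without a peak is not shown to be free of LEC1-GFP.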
